A study of Homo sapiens with 11 samples.

Results

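Transcript levels of 36 genes of homologous recombination, the Fanconi anaemia pathway and the checkpoint kinases that act with them were followed in a pair of human acute myeloid leukaemia lines. The genes were taken by symbol from a table of 58037 Ensembl gene identifiers. All 36 were found, and all 36 were among the 18908 genes that passed the filter on low counts. They comprise the BRCA1 and BRCA2 axis (4 genes), the paralog group of RAD51B, RAD51C, RAD51D, XRCC2 and XRCC3 (5), the strand exchange partners and motors RAD51AP1, RAD54L and RAD54B (3), the Fanconi core complex (8), the Fanconi ID2 complex and effectors (4), the BLM dissolvasome (3), the end sensing and resection genes (4) and the checkpoint kinases with ATRIP (5).

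Homologous recombination repairs a broken chromosome by copying the undamaged sister. The broken ends are cut back by MRE11, RAD50, NBN and RBBP8, the exposed single strand is made ready to pair with the sister by BRCA1, BARD1, PALB2, BRCA2 and the paralog group, and the joined molecules are taken apart by BLM and its partners. The Fanconi pathway clears crosslinks between the strands of DNA: its core complex attaches ubiquitin to FANCD2 and FANCI, which then call in nucleases held by SLX4 and hand the broken end to homologous recombination. Many of these genes are transcribed mainly in cells that replicate their DNA, and inherited defects in the Fanconi pathway cause bone marrow failure and a high risk of acute myeloid leukaemia.

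OCI-AML3 is an established line of acute myeloid leukaemia. OCI-AML3-FLT3-ITD carries in its name the internal tandem duplication of FLT3, an activating change in a receptor tyrosine kinase of blood progenitors. How that line was made, and whether it is 1 clone, are not given in the sources used here. Both lines were cultured in RPMI with 20% fetal bovine serum, and the treated libraries came from cells held for 16 h with 100 nM FHD-286, a small molecule that blocks the motor subunits BRG1 (SMARCA4) and BRM (SMARCA2) of BAF, a complex that moves nucleosomes. Libraries numbered 3 for OCI-AML3 control, 3 for OCI-AML3 with FHD-286, 3 for OCI-AML3-FLT3-ITD control and 2 for OCI-AML3-FLT3-ITD with FHD-286. The labels do not say whether controls received a vehicle, nor whether replicates were separate cultures, so p-values reflect spread among these libraries, and that spread may be technical.

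Total counts were between 58397190 and 79172389 per library, and 3 counts corresponded to 0.0366 to 0.0548 CPM (counts scaled by library size and TMM factors). 1 library stood apart, that with the label OCI-AML3-FLT3-ITD control replicate 2. FLT3 was at 53.4 CPM in it and at 178 and 203 CPM in the other 2 controls of that line, against 41.1 to 43.3 CPM in the OCI-AML3 controls. Across genes, its log2(CPM + 0.5) correlated at 0.974 to 0.976 with the other controls of its line and at 0.988 to 0.991 with the OCI-AML3 controls, while other libraries of a group correlated at 0.998 to 0.999. Mitochondrial genes took 8.85% of its counts, the highest share of the 11 libraries, against 4.82% and 4.48% in the other controls of its line and 5.07% to 6.13% in the OCI-AML3 controls. Of the 36 repair genes, 25 lay nearer in this library to the OCI-AML3 control mean than to the mean of the other 2 controls of its labelled line. Its group was left as labelled, and the counts of the 36 repair genes called in each comparison are given with and without it. Many results for single genes and for other gene lists are given with all 11 libraries only. Of the myeloid blast markers, the granule genes ELANE, AZU1 and PRTN3 had at least 9098 counts in each library and CD34 and KIT at most 5. Others of that list were low, with 15 to 210 counts for the granule gene MPO, 29 to 121 for ITGAM and 46 to 892 for CD14. Among defining markers of other cells, CD3E, HBB, PF4 and CDH1 had 0 counts in every library. The filter on low counts was passed by 1 of 10 erythroid and megakaryocyte markers, 6 of 11 lymphoid and 3 of 11 stromal and epithelial markers. CD4, which monocytic cells also express, was at 239 to 345 CPM, IL7R at 0.18 to 23.8 CPM and PECAM1 at 5.06 to 29.2 CPM. Summed lymphoid markers were at 281.5 to 322.7 CPM in OCI-AML3 controls and 245.1 to 252 CPM with FHD-286, and at 385.4, 257.1 and 363.9 CPM in OCI-AML3-FLT3-ITD controls and 229.5 and 230.3 CPM with FHD-286. MYC, given as a check of the treatment, fell in both lines, by 1.87 in OCI-AML3 and by 1.82 in OCI-AML3-FLT3-ITD on the log2 scale.

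Promoter sequence is shown for 6 chosen genes, which do not stand for the rest. RAD54L had the largest fall in OCI-AML3, and SLX4 was the only gene called higher there. The response of BLM, BRIP1, BRCA1 and FANCA differed between the lines. Each sequence is the stretch upstream of a RefSeq start site (GRCh38.p14), 5′ to 3′ on the gene's strand. Bases that GENCODE places in exons of protein-coding genes are left out. Capitals mark the NF-Y box CCAAT, or ATTGG as it reads on the other strand, and the E2F letters TTTGGCGC, TTTCCCGC, TTTGCCGC and TTTCGCGC on either strand.
RAD54L chr1:46247438-46247687 (plus strand): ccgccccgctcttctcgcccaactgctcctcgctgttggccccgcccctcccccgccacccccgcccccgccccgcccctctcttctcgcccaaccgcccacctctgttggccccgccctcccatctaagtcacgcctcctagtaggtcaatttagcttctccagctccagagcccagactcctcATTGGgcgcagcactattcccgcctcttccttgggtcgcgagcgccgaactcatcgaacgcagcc
BLM chr15:90717096-90717326 (plus strand): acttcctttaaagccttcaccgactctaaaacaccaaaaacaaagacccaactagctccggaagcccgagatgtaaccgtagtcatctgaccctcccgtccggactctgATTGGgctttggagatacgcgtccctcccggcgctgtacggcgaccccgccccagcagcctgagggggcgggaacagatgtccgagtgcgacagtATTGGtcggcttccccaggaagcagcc
BRIP1 chr17:61863529-61863778 (minus strand): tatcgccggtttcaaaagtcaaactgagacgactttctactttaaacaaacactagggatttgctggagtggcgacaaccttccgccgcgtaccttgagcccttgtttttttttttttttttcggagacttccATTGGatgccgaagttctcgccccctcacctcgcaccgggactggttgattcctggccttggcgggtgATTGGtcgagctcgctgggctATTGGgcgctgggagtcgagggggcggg
BRCA1 chr17:43125484-43125614 (minus strand): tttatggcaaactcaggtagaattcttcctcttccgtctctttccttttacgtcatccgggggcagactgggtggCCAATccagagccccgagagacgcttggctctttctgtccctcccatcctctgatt
FANCA chr16:89816658-89816897 (minus strand): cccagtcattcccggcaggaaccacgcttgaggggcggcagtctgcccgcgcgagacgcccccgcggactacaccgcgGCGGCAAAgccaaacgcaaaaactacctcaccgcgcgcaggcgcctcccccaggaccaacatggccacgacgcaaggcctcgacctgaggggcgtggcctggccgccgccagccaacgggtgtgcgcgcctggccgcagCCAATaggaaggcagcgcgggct
SLX4 chr16:3611607-3611727 (minus strand): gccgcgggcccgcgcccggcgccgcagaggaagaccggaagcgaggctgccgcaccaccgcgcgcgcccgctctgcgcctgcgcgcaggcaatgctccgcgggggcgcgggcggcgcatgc
The RAD54L stretch holds 1 NF-Y box, that of BLM 2, that of BRIP1 3, that of BRCA1 1 and that of FANCA 1 together with an E2F match, GCGGCAAA, the other-strand form of TTTGCCGC. Neither motif occurs in the SLX4 stretch of 121 bases. Of 11 genes with promoter windows whose difference between lines was called, 8 held the NF-Y box and XRCC2, FANCG and FANCD2 did not. Among the repair genes with windows, the box stood in 9 of 17 that fell in OCI-AML3 and in 7 of 15 that did not. Of 27305 genes with windows, 39.7% held it.

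With FHD-286, most of the repair genes that changed fell in OCI-AML3 and most of those that changed rose in OCI-AML3-FLT3-ITD. In OCI-AML3, 19 of the 36 genes fell (21.5% of all genes tested fell) and 1, SLX4, rose (19.8% of all genes rose). These counts come from the quasi-likelihood test of edgeR at an adjusted p under 0.05, with adjustment by Benjamini-Hochberg over all genes tested, here called the edgeR adjusted p. The median log2 fold change was -0.47 over the 36 genes and 0.01 over all genes tested. Without the library that stood apart, 23 fell (29.8% of all genes) and 3 rose (29.0% of all genes). For 23 genes the highest treated library lay below the lowest control (33.2% of all genes), and for 3 genes the lowest treated library lay above the highest control (32.8% of all genes). In bulk samples, fewer cells that transcribe a gene and less RNA per cell cannot be told apart. Of the 20 calls, 16 were made whichever library was left out. The fall of BARD1 was lost without any of 9 libraries (highest edgeR adjusted p 0.126, without OCI-AML3 FHD-286 replicate 3), that of FANCI without any of 5 (0.0866, without the same library) and that of ATR without OCI-AML3 control replicate 2 or treated replicate 1 or 3 (up to 0.0564). The rise of SLX4 was lost without OCI-AML3 control replicate 1 (edgeR adjusted p 0.0679). The fits that lost these 4 calls all kept the library that stood apart. The coefficient of variation fitted in common to all groups was 0.193 with that library and 0.0652 without it. All 19 falls were also called without it.

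**Figure D1:**
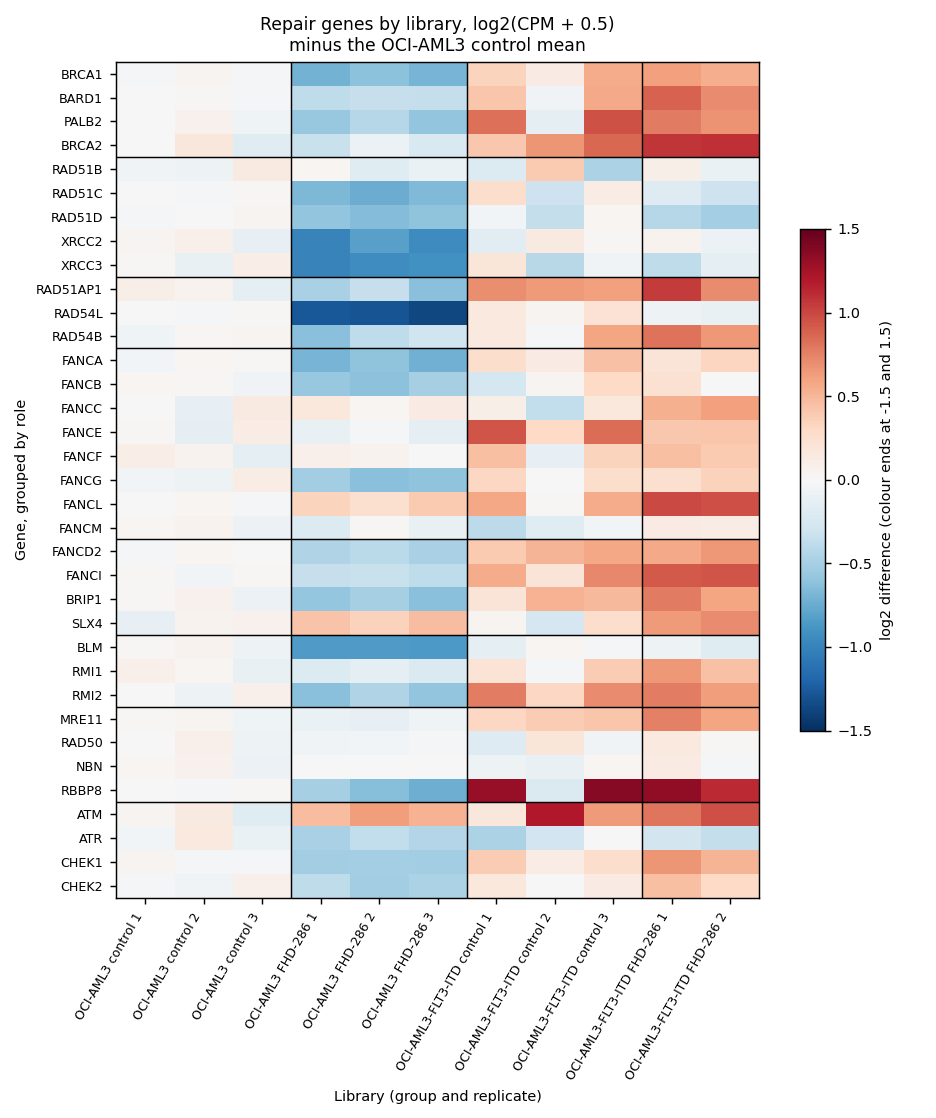
Each row is a repair gene grouped by role and each column a library, and colour gives log2(CPM + 0.5) minus the OCI-AML3 control mean, with the scale ending at -1.5 and 1.5. ATRIP, with 7 to 15 counts per library, is left out, so 35 genes are shown. The 3 treated OCI-AML3 columns are mostly blue, with 19 of the 36 genes called lower than in their controls. The treated OCI-AML3-FLT3-ITD columns are mostly red relative to the OCI-AML3 controls. Over the 36 genes their medians were 0.492 and 0.429, and those of OCI-AML3-FLT3-ITD control replicates 1 to 3 were 0.203, 0.0271 and 0.316. Against the controls of their own line, 10 genes were called higher and 2 lower.

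In OCI-AML3-FLT3-ITD, 10 of the 36 genes rose with FHD-286 (15.6% of all genes tested rose) and 2, RAD51D and RAD54L, fell (14.9% of all genes fell), with a median log2 fold change of 0.16 against -0.02 over all genes. Without the library that stood apart, 15 rose (24.8% of all genes) and 5 fell (24.2% of all genes), with a median of 0.17. Ranges of treated and control libraries did not overlap for 14 genes that were higher (26.1% of all genes) and 2 that were lower (22.9% of all genes). With only the 5 libraries of that line in the fit, edgeR called 0 higher and 0 lower (8 of the 36 had an unadjusted p under 0.05), and the 2 falls were also lost with library totals in place of TMM factors and with the replicate number as a block. Of the 12 calls, that of SLX4 was made whichever library was left out and the other 11 were not. Without treated replicate 1, 1 gene was called higher, and without treated replicate 2, 3 were. Without OCI-AML3 control replicate 1, or without OCI-AML3 FHD-286 replicate 1 or 3, 6 were called higher. Of the 19 genes that fell in OCI-AML3, 4 rose in OCI-AML3-FLT3-ITD (BARD1, FANCI, CHEK1 and CHEK2), 2 fell (RAD51D and RAD54L) and 13 were not called.

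The difference between the effects, tested as the effect in OCI-AML3-FLT3-ITD minus that in OCI-AML3, was called higher for 12 of the 36 genes (1.98% of all genes tested) and lower for 0 (1.38% of all genes). All 12 were genes that fell in OCI-AML3. The median difference was 0.65 on the log2 scale against -0.01 over all genes, and it was positive for 34 of the 36. At an unadjusted p under 0.05 the same edgeR test gave 23 of the 36 in either direction, and the Wald test of DESeq2 called 19 higher and 0 lower. Without the library that stood apart, 24 were called higher (9.63% of all genes) and 1, FANCE, lower (7.39% of all genes), and the 24 held all 12 of the first fit. Only RAD54L, BLM and CHEK1 were called whichever library was left out. The count fell to 6, 7 and 4 without OCI-AML3 FHD-286 replicates 1, 2 and 3, to 7, 7 and 8 without OCI-AML3 control replicates 1, 2 and 3, and to 3 and 8 without OCI-AML3-FLT3-ITD FHD-286 replicates 1 and 2. It was 15 without OCI-AML3-FLT3-ITD control replicate 1 or 3.

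**Figure D2:**
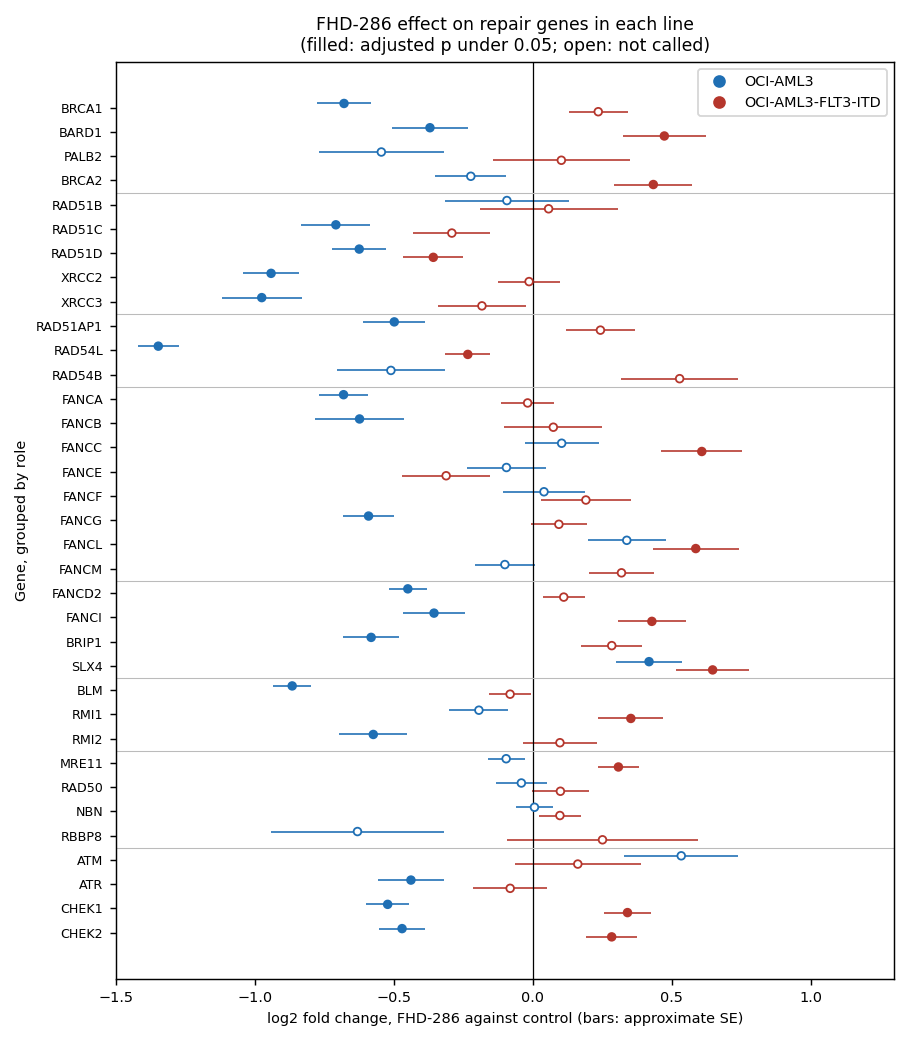
The horizontal axis is the log2 fold change of FHD-286 against control and each row a gene, with OCI-AML3 in blue, OCI-AML3-FLT3-ITD in red, bars for the approximate SE and filled points for an edgeR adjusted p under 0.05. Blue points run from -1.35 for RAD54L to 0.53 for ATM among the 35 genes shown (ATRIP is left out), and the red point lies to the right of the blue one for all but FANCE and ATM.

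The BRCA1 and BRCA2 axis prepares broken ends for pairing with the sister. Normalised CPM of BRCA1 (ENSG00000012048.20, GRCh38 chromosome 17, 43044295 to 43170245), the ubiquitin ligase that starts this step, was 88.7, 92.2 and 88.4 in the OCI-AML3 controls and 54.9, 58.4 and 55.0 with FHD-286. In OCI-AML3-FLT3-ITD it was 113, 97.8 and 132 in controls and 138 and 131 with FHD-286. Every treated OCI-AML3 library thus lay below every control of that line, while the treated and control ranges of OCI-AML3-FLT3-ITD overlapped. The log2 fold change was -0.68 (SE 0.0957, edgeR adjusted p 0.000256) in OCI-AML3 and 0.24 (SE 0.106, edgeR adjusted p 0.118) in OCI-AML3-FLT3-ITD, and the difference of 0.91 (SE 0.142, edgeR adjusted p 0.00917) was called. It was not called without OCI-AML3-FLT3-ITD FHD-286 replicate 1 (edgeR adjusted p 0.0698). BRCA1 has a partial pseudogene copy, so its counts are uncertain where reads could be split between them.

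BARD1, the partner of BRCA1 in that ligase, was called lower with FHD-286 in OCI-AML3 and higher in OCI-AML3-FLT3-ITD with all libraries. BARD1 stood at 24.8, 25.1 and 24.3 CPM in OCI-AML3 controls and 18.8, 19.3 and 19.2 CPM with FHD-286, and 33.1, 23.7 and 37.0 CPM in OCI-AML3-FLT3-ITD controls and 46.0 and 40.8 CPM with FHD-286. The groups of each line did not overlap, with log2 fold changes of -0.37 (SE 0.136, edgeR adjusted p 0.0494) and 0.47 (SE 0.149, edgeR adjusted p 0.0347), and the difference missed the threshold at an edgeR adjusted p of 0.0502. The fall of BARD1 was lost without any of 9 libraries (edgeR adjusted p up to 0.126) and its rise without any of 8 (up to 0.232). BRCA2, which acts on the exposed single strands, was at 24.4 to 34.9 CPM in the 6 OCI-AML3 libraries, where treated and control ranges overlapped. In OCI-AML3-FLT3-ITD it rose from 41.0, 49.2 and 56.5 CPM to 65.7 and 66.4 CPM (log2 fold change 0.43, SE 0.140, edgeR adjusted p 0.0387), a call lost without any of 6 libraries (up to 0.149). PALB2, the bridge between BRCA1 and BRCA2, was at 18.4 to 20.2 CPM in OCI-AML3 controls and 12.6 to 14.1 CPM with FHD-286, ranges that did not overlap. Its log2 fold change of -0.54 was not called with all libraries (edgeR adjusted p 0.0749) and was called without the library that stood apart, where PALB2 stood at 17.4 CPM against 34.6 and 37.8 CPM in the other OCI-AML3-FLT3-ITD controls.

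In the paralog group, whose proteins assist strand pairing, 4 of 5 fell in OCI-AML3, with a median log2 fold change of -0.71 over the 5 against 0.01 over all genes tested, of which 21.5% fell. XRCC2 was at 36.4, 37.3 and 32.3 CPM in OCI-AML3 controls and at 17.3, 19.8 and 18.1 CPM with FHD-286, and at 31.3, 38.7 and 35.5 CPM in OCI-AML3-FLT3-ITD controls and 36.7 and 33.0 CPM with FHD-286. Only the treated OCI-AML3 libraries were low. The change was -0.94 (SE 0.101, edgeR adjusted p 4.22e-05) in OCI-AML3 and -0.01 (SE 0.112, edgeR adjusted p 0.942) in OCI-AML3-FLT3-ITD, and the difference was 0.93 (SE 0.150, edgeR adjusted p 0.0105). XRCC3 fell in OCI-AML3 from 23.9 to 27.9 CPM in controls to 12.7 to 13.6 CPM, and 76.7% of its exon length is shared with KLC1 on the other strand, whose reads may be counted with it.

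RAD51D, another paralog, was lower with FHD-286 in both lines. It fell from 38.5, 39.1 and 40.6 CPM to 26.1, 24.8 and 25.8 CPM in OCI-AML3 (log2 fold change -0.62, SE 0.0966, edgeR adjusted p 0.000467) and from 38.2, 30.8 and 40.4 CPM to 29.2 and 27.6 CPM in OCI-AML3-FLT3-ITD (-0.36, SE 0.108, edgeR adjusted p 0.0291). The control and treated ranges did not overlap in either line, and the difference of 0.27 was not called (SE 0.144, edgeR adjusted p 0.360). The OCI-AML3-FLT3-ITD call was lost without any of the 4 libraries of that line other than control replicate 2 (edgeR adjusted p up to 0.180), with only the groups compared (0.168), with library totals (0.0941) and with the replicate block (0.0535). RAD51C fell in OCI-AML3 from 37.4 to 38.9 CPM in controls to 22.6 to 23.9 CPM (log2 fold change -0.71), and in OCI-AML3-FLT3-ITD its change of -0.29 was called only without the library that stood apart, at -0.44. RAD51B was at 2.87 to 5.66 CPM over the 11 libraries and was called in none of the comparisons with all libraries.

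RAD54L (ENSG00000085999.11, GRCh38 chromosome 1, 46247688 to 46278473), a motor protein that acts on DNA during strand exchange, had the largest fall of the 36 genes in OCI-AML3. It was at 30.4, 29.9 and 30.9 CPM in the controls and 12.3, 12.1 and 11.5 CPM with FHD-286, and in OCI-AML3-FLT3-ITD at 33.7, 31.3 and 35.4 CPM in controls and 28.7 and 28.1 CPM with FHD-286. The treated libraries lay below the controls in both lines without overlap. The log2 fold change was -1.35 (SE 0.0735, edgeR adjusted p 5.83e-07) in OCI-AML3 and -0.23 (SE 0.0807, edgeR adjusted p 0.0495) in OCI-AML3-FLT3-ITD, the latter lost without any of 9 libraries (edgeR adjusted p up to 0.219), with only the groups compared (0.232), with library totals (0.263) and with the replicate block (0.103). The difference of 1.11 (SE 0.108, edgeR adjusted p 0.00146) was the largest of the 36 and was called whichever library was left out. LRRC41 on the other strand shares 25.1% of its exon length.

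RAD51AP1, which assists pairing with the template, was at 23.1, 22.8 and 19.7 CPM in OCI-AML3 controls and 15.4, 17.1 and 14 CPM with FHD-286. In OCI-AML3-FLT3-ITD it was at 35.6, 34.3 and 33.6 CPM in controls and 45.8 and 35.9 CPM with FHD-286. It fell in OCI-AML3 (log2 fold change -0.50, SE 0.112, edgeR adjusted p 0.00475), and every OCI-AML3-FLT3-ITD library lay above every OCI-AML3 library. The difference between the effects of 0.74 (SE 0.167, edgeR adjusted p 0.0393) was lost without any of 8 libraries (up to 0.222). RAD54B, a relative of RAD54L, was low at 1.80 to 5.77 CPM, shares 59.1% of its exon length with FSBP, and was called in neither line with all libraries.

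**Figure D3:**
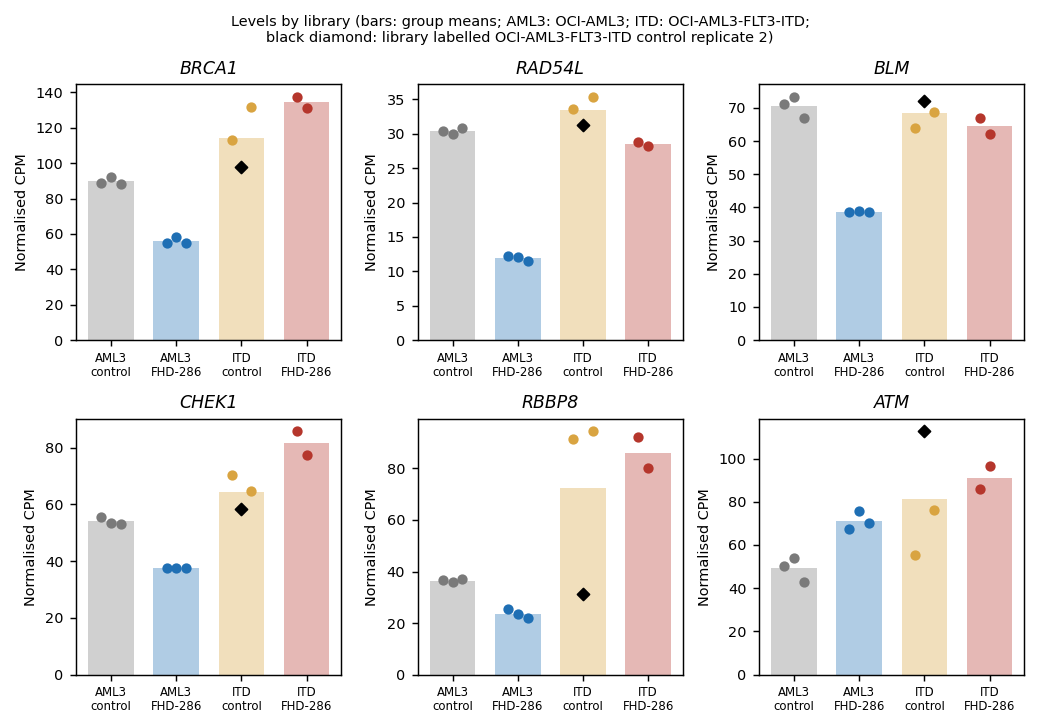
Each panel gives normalised CPM of 1 gene, with a point per library, a bar for the group mean and a black diamond for OCI-AML3-FLT3-ITD control replicate 2, which stood apart. BRCA1, RAD54L, BLM and CHEK1 were lowest in the 3 treated OCI-AML3 libraries, and the diamond lies far from the other controls of its group for RBBP8 (31.4 CPM against 91.4 and 94.6) and ATM (113 CPM against 55.3 and 76.4).

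The Fanconi core complex was divided. FANCA, FANCB and FANCG fell in OCI-AML3, and the other 5 members were not called there. FANCA, a scaffold subunit, was at 43.8, 46.0 and 45.7 CPM in OCI-AML3 controls and 27.8, 29.5 and 27.3 CPM with FHD-286, with log2 fold change -0.68 (SE 0.0867, edgeR adjusted p 0.000132). In OCI-AML3-FLT3-ITD it was at 54.4, 49.1 and 61.2 CPM in controls and 51.6 and 56.8 CPM with FHD-286, ranges that overlapped. FANCG, a partner of FANCA, had a similar course, from 45.8 to 52.1 CPM to 31.1 to 33.3 CPM in OCI-AML3 and from 48.5 to 59.8 CPM to 57.0 and 61.1 CPM in OCI-AML3-FLT3-ITD. The differences between lines of 0.66 for FANCA (SE 0.129, edgeR adjusted p 0.0226) and 0.68 for FANCG (SE 0.135, edgeR adjusted p 0.0238) were each lost without any of 8 libraries (edgeR adjusted p up to 0.111 and 0.113). ZNF276 shares 23.6% of the exon length of FANCA.

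FANCC and FANCL were the core members that rose in OCI-AML3-FLT3-ITD. FANCL, the ubiquitin ligase of the complex, was at 10.5, 10.8 and 10.4 CPM in OCI-AML3 controls and 13.5, 12.6 and 14 CPM with FHD-286, and at 16.1, 10.7 and 15.8 CPM in OCI-AML3-FLT3-ITD controls and 21.5 and 21.1 CPM with FHD-286. Treated libraries were higher than controls in both lines without overlap, but only the change in OCI-AML3-FLT3-ITD was called (0.59, SE 0.155, edgeR adjusted p 0.0158, against 0.34, SE 0.141, edgeR adjusted p 0.0795 in OCI-AML3), and the difference of 0.25 was not (SE 0.210, edgeR adjusted p 0.566). FANCL shares 19.7% of its exon length with VRK2. FANCC was at 20.3 to 24.7 CPM in all 6 OCI-AML3 libraries and rose in OCI-AML3-FLT3-ITD from 23.6, 17 and 24.8 CPM to 32.2 and 34.2 CPM (0.61, SE 0.146, edgeR adjusted p 0.0101). Both rises were lost without either treated OCI-AML3-FLT3-ITD library, with edgeR adjusted p up to 0.0983 for FANCL and 0.0761 for FANCC.

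FANCE, which binds FANCD2 to the core, was the only one of the 36 called lower for the difference between lines, and only without the library that stood apart. It was at 48.0, 43.1 and 51.0 CPM in OCI-AML3 controls and 43.8, 46.3 and 42.9 CPM with FHD-286, and at 91.1, 58.0 and 85.2 CPM in OCI-AML3-FLT3-ITD controls and 62.7 and 63.2 CPM with FHD-286. The 2 treated OCI-AML3-FLT3-ITD libraries lay between control replicate 2 and the other controls. The change in that line was -0.31 with all libraries (SE 0.159, edgeR adjusted p 0.163) and -0.49 without control replicate 2 (edgeR adjusted p 2.92e-05), where the difference between lines was -0.39 (edgeR adjusted p 0.0103). FANCM, the motor that brings the core to DNA, was at 14.2 to 20.6 CPM and FANCF, an adaptor subunit that shares 11.3% of its exon length with GAS2, at 8.82 to 13.6 CPM over the 11 libraries, and both were uncalled in all 5 comparisons with all libraries. FANCB, another core subunit, fell in OCI-AML3 from 5.42 to 5.77 CPM to 3.50 to 3.84 CPM.

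FANCD2 and FANCI, the paired proteins that the core marks with ubiquitin, both fell in OCI-AML3. FANCI (ENSG00000140525.17, GRCh38 chromosome 15, 89243949 to 89317261) was at 77.7, 74.7 and 78.1 CPM in OCI-AML3 controls and 60.5, 60.8 and 58.8 CPM with FHD-286, and at 113, 87.7 and 127 CPM in OCI-AML3-FLT3-ITD controls and 146 and 148 CPM with FHD-286. It was lower than every control in OCI-AML3 and higher than every control in OCI-AML3-FLT3-ITD, with log2 fold changes of -0.36 (SE 0.110, edgeR adjusted p 0.0240) and 0.43 (SE 0.121, edgeR adjusted p 0.0215). The difference of 0.78 (SE 0.163, edgeR adjusted p 0.0296) was lost without any of 8 libraries (up to 0.141). FANCD2 fell from 41.8, 43.4 and 42.1 CPM to 30.9, 32.0 and 30.2 CPM in OCI-AML3 (-0.45, SE 0.0681, edgeR adjusted p 0.000409) and was at 55.6, 60.8 and 63.8 CPM and 63.1 and 66.7 CPM in OCI-AML3-FLT3-ITD, where the ranges overlapped. FANCD2 has pseudogene copies, so its counts are uncertain where reads could be split among them.

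BRIP1, the helicase partner of BRCA1, was at 30.1, 30.9 and 28.0 CPM in OCI-AML3 controls and 19.6, 20.9 and 19.0 CPM with FHD-286. In OCI-AML3-FLT3-ITD it was at 34.1, 42.8 and 41.6 CPM in controls and 51.2 and 44.9 CPM with FHD-286. Treated libraries were all lower than controls in OCI-AML3 and all higher in OCI-AML3-FLT3-ITD, with changes of -0.58 (SE 0.0997, edgeR adjusted p 0.000900) and 0.28 (SE 0.110, edgeR adjusted p 0.0745), and the difference of 0.87 was called (SE 0.148, edgeR adjusted p 0.0128). SLX4, the scaffold for nucleases that cut joined DNA, was the only gene to rise in both lines with all libraries. It was at 26.2, 29.6 and 29.9 CPM in OCI-AML3 controls and 38.7, 36.3 and 39.5 CPM with FHD-286 (log2 fold change 0.42, SE 0.118, edgeR adjusted p 0.0159), and at 29.4, 23.9 and 34.3 CPM in OCI-AML3-FLT3-ITD controls and 44.6 and 46.8 CPM with FHD-286 (0.65, SE 0.130, edgeR adjusted p 0.00392). Groups did not overlap in either line, and the difference of 0.23 was not called (SE 0.176, edgeR adjusted p 0.526).

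BLM (ENSG00000197299.10, GRCh38 chromosome 15, 90717327 to 90816165), the helicase that dissolves joined chromosomes, was at 71.3, 73.4 and 66.8 CPM in OCI-AML3 controls and 38.8, 38.8 and 38.5 CPM with FHD-286. It was at 63.9, 72.1 and 68.9 CPM in OCI-AML3-FLT3-ITD controls and 67.0 and 62.0 CPM with FHD-286. Only the 3 treated OCI-AML3 libraries were low, and the other 8 fell within 62.0 to 73.4 CPM. The change was -0.87 (SE 0.0682, edgeR adjusted p 5.27e-06) in OCI-AML3 and -0.08 (SE 0.0756, edgeR adjusted p 0.451) in OCI-AML3-FLT3-ITD, with a difference of 0.78 (SE 0.101, edgeR adjusted p 0.00397). RMI2, a subunit that BLM works with, fell in OCI-AML3 from 18.4 to 20.5 CPM to 12.4 to 14.1 CPM. RMI1, the other subunit, was not called there with all libraries and rose in OCI-AML3-FLT3-ITD from 50.1, 42.6 and 56.7 CPM to 68.2 and 58.9 CPM (0.35, SE 0.117, edgeR adjusted p 0.0434), a call lost without any of 9 libraries (up to 0.319).

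The end sensing and resection genes gave 0 calls among 4 in OCI-AML3 with all libraries by edgeR, 0 had an unadjusted p under 0.05, and DESeq2 also called 0. NBN, the sensor subunit, was at 131 to 145 CPM in the 6 OCI-AML3 libraries and 129 to 151 CPM in the 5 of OCI-AML3-FLT3-ITD, and RAD50, the coiled-coil ATPase of the same complex, at 92.7 to 103 CPM and 84.9 to 110 CPM. A transcript annotated as AC116366.3 shares 79.7% of the exon length of RAD50. MRE11, the nuclease subunit, rose in OCI-AML3-FLT3-ITD from 59.9, 63.2 and 64.6 CPM to 81.7 and 73.2 CPM (0.31, SE 0.0730, edgeR adjusted p 0.00939), a call lost without treated replicate 1 (edgeR adjusted p 0.120).

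RBBP8, which encodes the resection factor CtIP, had the widest spread of the 36 genes over the OCI-AML3-FLT3-ITD controls, at 3.01-fold from lowest to highest. It was at 36.6, 36 and 37.0 CPM in OCI-AML3 controls and 25.6, 23.3 and 21.8 CPM with FHD-286, and at 91.4, 31.4 and 94.6 CPM in OCI-AML3-FLT3-ITD controls and 92.3 and 80.1 CPM with FHD-286. In the library that stood apart RBBP8 was thus below the OCI-AML3 controls. Its change in OCI-AML3 was -0.63, with an SE of 0.312 and an edgeR adjusted p of 0.133 in the fit of all libraries, and an edgeR adjusted p of 1.12e-07 without that library.

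ATM, the kinase that answers to broken ends, also lay far from the other controls in that library. The spread over the OCI-AML3-FLT3-ITD controls was 2.04-fold for ATM and 2.16-fold for PALB2. It was at 50.5, 54.0 and 43.0 CPM in OCI-AML3 controls and 67.5, 75.6 and 70.4 CPM with FHD-286, and at 55.3, 113 and 76.4 CPM in OCI-AML3-FLT3-ITD controls and 85.8 and 96.5 CPM with FHD-286. The treated OCI-AML3 libraries were all above their controls, with a log2 fold change of 0.53 that was not called with all libraries (edgeR adjusted p 0.0589) and was called without it (7.19e-05), as was a change of 0.47 in OCI-AML3-FLT3-ITD (0.00228). ATR, the kinase that answers to single strands, went the other way in OCI-AML3, from 41.5, 47.4 and 39.9 CPM to 30.4, 33.2 and 31.5 CPM (-0.44, SE 0.118, edgeR adjusted p 0.0124). It was at 30.8 to 43.2 CPM in OCI-AML3-FLT3-ITD controls and 33.4 and 35.2 CPM with FHD-286, and 16.4% of its exon length is shared with AC109992.1. ATRIP, the partner of ATR, had 7 to 15 counts per library, shares 27.9% of its exon length with TREX1, and no difference was detectable at such counts.

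CHEK1 and CHEK2, the effector kinases below ATR and ATM, fell in OCI-AML3 and rose in OCI-AML3-FLT3-ITD. CHEK1 (ENSG00000149554.12, GRCh38 chromosome 11, 125625136 to 125676255) was at 55.5, 53.4 and 53.2 CPM in OCI-AML3 controls and 37.6, 37.7 and 37.5 CPM with FHD-286, and at 70.3, 58.3 and 64.9 CPM in OCI-AML3-FLT3-ITD controls and 85.9 and 77.4 CPM with FHD-286. No treated library overlapped the controls of its line. The changes were -0.52 (SE 0.0765, edgeR adjusted p 0.000329) and 0.34 (SE 0.0843, edgeR adjusted p 0.0117), and the difference was 0.86 (SE 0.114, edgeR adjusted p 0.00435). CHEK2 moved from 24.0, 23.4 and 25.9 CPM to 18.6, 16.9 and 17.5 CPM in OCI-AML3 and from 27.3, 24.4 and 26.7 CPM to 33.4 and 30.1 CPM in OCI-AML3-FLT3-ITD, with changes of -0.47 (SE 0.0832, edgeR adjusted p 0.00111) and 0.28 (SE 0.0918, edgeR adjusted p 0.0388). The rise of CHEK1 was lost without treated OCI-AML3-FLT3-ITD replicate 1 (edgeR adjusted p 0.139) and that of CHEK2 without any of 8 libraries (up to 0.287). CHEK2 has many pseudogene copies in the genome, and its counts are uncertain in that respect.

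**Figure D4:**
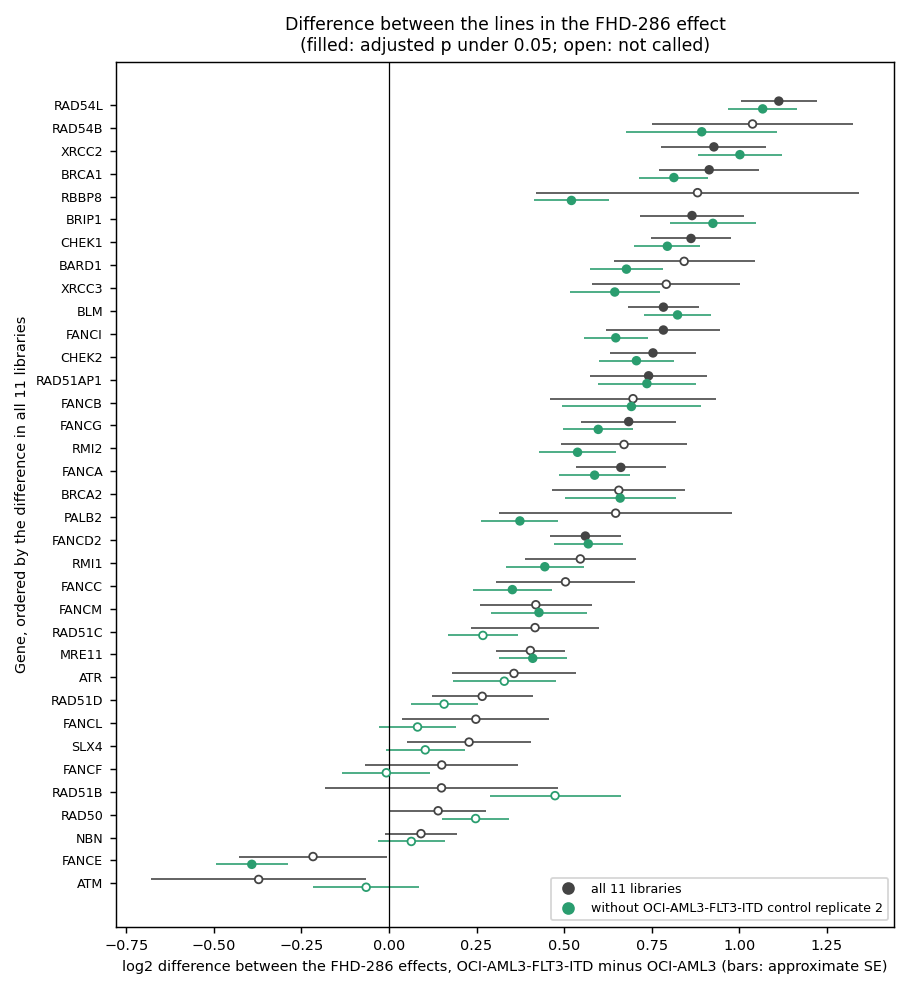
The horizontal axis is the FHD-286 effect in OCI-AML3-FLT3-ITD minus that in OCI-AML3 on the log2 scale, with bars for the approximate SE, filled points for an edgeR adjusted p under 0.05, all 11 libraries in grey and the fit without OCI-AML3-FLT3-ITD control replicate 2 in green. Of the 36 genes (35 shown, ATRIP left out), 12 were called in grey and 24 in green to the right of 0, from 0.56 for FANCD2 to 1.11 for RAD54L in grey, and FANCE was called to the left in green.

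Before treatment, those repair genes that were called between the lines with all libraries were already higher in OCI-AML3-FLT3-ITD. In the controls, 14 of 36 were higher in that line (14.5% of all genes tested) and 0 were lower (13.5% of all genes), with a median log2 difference of 0.22 against 0.01 over all genes. An unadjusted p under 0.05 was given to 17 of 36 by the edgeR test, and DESeq2 called 15 higher and 0 lower. With only the control libraries in the fit, 6 were called higher. Without the library that stood apart the counts were 22 higher (24.1% of all genes) and 1, RAD51B, lower (25.4% of all genes), with a median of 0.31. The 14 were BRCA1, BRCA2, RAD51AP1, FANCA, FANCE, FANCL, FANCD2, FANCI, BRIP1, RMI2, MRE11, RBBP8, ATM and CHEK1. Of these, BRCA2, RAD51AP1, FANCE, FANCD2, FANCI, RMI2 and MRE11 were called whichever library was left out, and the count fell to 8 and 7 without OCI-AML3 control replicates 1 and 3 and to 9 without OCI-AML3-FLT3-ITD control replicate 3. For 13 genes every OCI-AML3-FLT3-ITD control lay above every OCI-AML3 control (17.1% of all genes), and for 0 genes below (19.8% of all genes). The paralog group gave 0 calls among 5 with all libraries by edgeR, 0 had an unadjusted p under 0.05, and DESeq2 also called 0.

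With FHD-286 the separation of the lines was wider. Treated OCI-AML3-FLT3-ITD was higher than treated OCI-AML3 for 26 of the 36 genes (14.3% of all genes tested) and lower for 0 (11.7% of all genes), with a median log2 difference of 0.76 against 0.00 over all genes. At an unadjusted p under 0.05 the edgeR test gave 27, and DESeq2 called 26 higher and 0 lower. Without the library that stood apart, 29 were called higher (24.2% of all genes) and 0 lower (22.8% of all genes). For 33 of the 36 every treated OCI-AML3-FLT3-ITD library lay above every treated OCI-AML3 library (33.3% of all genes), and for 0 below (32.9% of all genes). The largest differences among the 36 were 1.87 for RBBP8 (SE 0.342, edgeR adjusted p 0.00347), 1.40 for RAD51AP1 (SE 0.123, edgeR adjusted p 8.15e-05) and 1.34 for RAD54B (SE 0.212, edgeR adjusted p 0.00167). All 4 genes of the BRCA1 and BRCA2 axis differed by 1.18 to 1.31. The calls for RAD51C, XRCC3, FANCB, FANCC, FANCE and FANCL were lost when some library was left out, and the other 20 were not. This comparison, the control comparison and the effects of FHD-286 share libraries, so their counts are not independent of each other.

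Other genes of the same repair routes, taken from a list of 37, also fell more often than they rose in OCI-AML3. In OCI-AML3, 15 of the 37 fell (40.5%, against 21.5% of all genes tested) and 3 rose (8.11%, against 19.8%), with a median log2 fold change of -0.25 against 0.01. EXO1, a nuclease that extends resection, fell by 1.31 (SE 0.0668, edgeR adjusted p 3.56e-07), and BRCC3, a deubiquitinase of the BRCA1-A complex, fell by 0.65. MUS81, a nuclease subunit held by SLX4, rose by 0.40 (SE 0.0724, edgeR adjusted p 0.00127). In OCI-AML3-FLT3-ITD 3 of the 37 rose and 2 fell, shares of 8.11% and 5.41% that lie below the 15.6% and 14.9% of all genes, with SFR1, an accessory factor of recombination, highest at 0.83 (SE 0.140, edgeR adjusted p 0.00136). The difference between the effects was called higher for 9 (24.3%, against 1.98% of all genes) and lower for 0, among them EXO1 at 1.20 and USP1, which removes ubiquitin from FANCD2, at 0.71, and 18 had an unadjusted p under 0.05.

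Genes around ATR and CHK1 gave 9 falls (52.9%) and 1 rise (5.88%) among 17 in OCI-AML3, where 21.5% of all genes fell and 19.8% rose, led by CDC25A, the phosphatase that CHK1 restrains (-1.55, SE 0.133, edgeR adjusted p 9.58e-06), and CLSPN, the adaptor through which ATR reaches CHK1 (-1.06, SE 0.110, edgeR adjusted p 3.37e-05). In OCI-AML3-FLT3-ITD 5 of these rose (29.4%, against 15.6% of all genes) and 0 fell (7 with an unadjusted p under 0.05 in either direction). The rival route of end joining had 9 falls (52.9%) and 2 rises (11.8%) among 17 genes tested in OCI-AML3, to be read against the same shares of all genes. TP53BP1, which shields ends from resection, rose in both lines, by 0.79 (SE 0.0828, edgeR adjusted p 3.47e-05) and 0.96 (SE 0.0906, edgeR adjusted p 3.49e-05), whereas PARP1, a sensor of breaks, fell by 0.80 in OCI-AML3. For end joining the difference between the effects was called for 0 of 17 with all libraries by edgeR (5 at an unadjusted p under 0.05). Over all genes tested, that fit called 1.98% higher and 1.38% lower. DESeq2 called 1 of the 17 higher. Without the library that stood apart, edgeR called 5 higher (9.63% of all genes) and 1 lower (7.39% of all genes).

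Markers of the cell cycle and of myeloid cells also changed with FHD-286, and their part in these results was not tested. S phase markers fell with the repair genes in OCI-AML3 but were called higher and lower equally often in OCI-AML3-FLT3-ITD, whereas the called G2 and M phase markers fell in OCI-AML3 and rose in OCI-AML3-FLT3-ITD. Of 28 S phase markers 26 fell (21.5% of all genes tested fell) and 0 rose (19.8% of all genes) in OCI-AML3. Their median log2 fold change was -0.85 (27 with an unadjusted p under 0.05, and 27 lower and 0 higher by DESeq2), and their summed level went from 4893 to 5502 CPM in the controls to 2528 to 2626 CPM with FHD-286. In OCI-AML3-FLT3-ITD 3 rose (15.6% of all genes) and 3 fell (14.9% of all genes) with a median of -0.09. In that line 3 rose (24.8% of all genes) and 15 fell (24.2% of all genes) without the library that stood apart. Their sum there was 6565, 4560 and 6245 CPM in the controls and 5252 and 5123 CPM with FHD-286. Of 25 G2 and M phase markers 8 fell (32%, against 21.5% of all genes) and 0 rose in OCI-AML3, and 15 rose (15.6% of all genes) and 0 fell in OCI-AML3-FLT3-ITD. Their sums in controls and with FHD-286 were 2648 to 2684 CPM and 2329 to 2369 CPM in OCI-AML3. In OCI-AML3-FLT3-ITD they were 3568, 3112 and 3766 CPM and 4769 and 4571 CPM. Without the library that stood apart the G2 and M phase counts were 1 rise (29.0% of all genes) and 16 falls (29.8% of all genes) in OCI-AML3. E2F1, a driver of S phase transcription, fell in OCI-AML3 by 1.09 on the log2 scale (SE 0.118, edgeR adjusted p 4.2e-05). It belongs to a list of 13 genes of E2F factors and their partners. Of these, 6 fell (46.2%, against 21.5% of all genes) and 1 rose (7.69%, against 19.8%) in that line.

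Most myeloid blast markers fell in both lines. Of 11 that passed the filter on low counts (13 listed), 10 fell and 0 rose in OCI-AML3 and 10 fell and 0 rose in OCI-AML3-FLT3-ITD, with median log2 fold changes of -1.11 and -1.71. Of all genes tested, 21.5% fell and 19.8% rose in OCI-AML3, and 14.9% fell and 15.6% rose in OCI-AML3-FLT3-ITD. Their summed level went from 4323 to 4923 CPM in the controls to 1407 to 1434 CPM with FHD-286 in OCI-AML3. In OCI-AML3-FLT3-ITD it went from 3007, 3167 and 2619 CPM to 719 and 795 CPM. The difference between the effects was called higher for 1 (1.98% of all genes) and lower for 5 (1.38% of all genes) of the 11. Without the library that stood apart, 10 fell in OCI-AML3 (29.8% of all genes) and 11 in OCI-AML3-FLT3-ITD (24.2% of all genes).

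**Figure D5:**
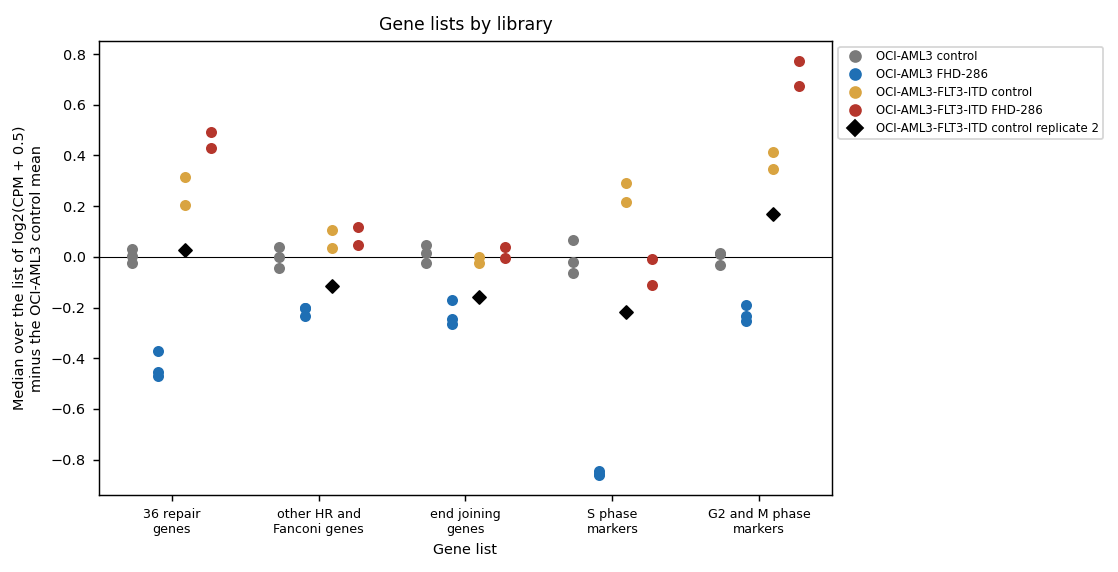
Each point is a library, its height the median over a gene list of log2(CPM + 0.5) minus the OCI-AML3 control mean, with the 4 groups in colour and OCI-AML3-FLT3-ITD control replicate 2, which stood apart, as a black diamond. The treated OCI-AML3 libraries lie at -0.37 to -0.47 for the 36 repair genes and at -0.84 to -0.86 for the S phase markers, and the treated OCI-AML3-FLT3-ITD libraries at 0.43 and 0.49 and at -0.01 and -0.11.

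Levels per kilobase of exon, which allow genes to be set side by side, spanned a wide range in OCI-AML3 controls. NBN was highest at 22.6 CPM per kb, followed by FANCE at 17.6 and FANCG at 13.3, and the lowest were RAD54B at 0.574, RAD51B at 0.564 and ATRIP at 0.0300. RAD54B and RAD51B, neighbours in that order, differed by less than the spread of RAD51B over its 3 libraries. Across the 36 genes the log2 fold changes in OCI-AML3 and in OCI-AML3-FLT3-ITD, which share no library, correlated at r = 0.533 (0.588 without the library that stood apart), a description over genes that share libraries and are not independent replicates.

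RefSeq promoter windows of 300 bases, 250 upstream and 50 downstream of a start, were found for 32 of the 36 genes (44 windows), and NBN, FANCI, RAD54B and RMI2 had none in the table. The NF-Y box stood in a window of 16 of the 32 genes, 50% against 39.7% of 27305 genes, and in 8 of the 11 matched genes whose difference between lines was called (72.7%). The E2F letters stood in 5 of the 32, 15.6% against 3.99% of all genes (FANCA, FANCC, FANCD2, RMI1 and XRCC2). The ETS core CCGGAAG stood in 10 of 32, 31.2% against 12.2%, the NRF1 consensus in 2, 6.25% against 1.52%, and the cell cycle element TTTGAA in 3, 9.38% against 18.2%. Genes that fell in OCI-AML3 held the NF-Y box in 9 of 17 (52.9%) and those that did not in 7 of 15 (46.7%), and the E2F letters in 3 of 17 (17.6%) and 2 of 15 (13.3%). Both strands were searched, and a match describes letters in a window, not bound sites.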

How the data were processed

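Total RNA was sequenced in 11 libraries with standard Illumina protocols, per the labels' protocols. STAR and hg38 are named in the submitters' processing notes, while the counting program, strand setting and annotation are not given in the sources used here. The deposited table holds raw counts per Ensembl gene, 1 column per library, with no normalisation by the authors. Reads of overlapping genes therefore cannot be told apart.

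Of 58037 identifiers, 57433 were found in GENCODE release 29, which gave symbols, coordinates and exon lengths. The 36 genes and every other gene list were chosen with earlier results of these data known. All were named by that choice, and of each other list only the 3 genes with the smallest p in a comparison and 1 called gene of the minority direction. Markers of cell types were also named outside that rule, as were FLT3 and MYC. edgeR 4.0.16 in R 4.3.3 was used with TMM factors, its filter on low counts (minimum 10, total 15; 18908 genes kept), 1 mean per group over all 11 libraries, the quasi-likelihood test and Benjamini-Hochberg adjustment over all genes tested. An adjusted p under 0.05 was a call. SEs are the log2 fold change divided by the root of F and approximate. The fit was repeated without the library that stood apart (18662 genes kept). The code was tested on simulated data. Alternatives were other scalings and filters, the Wald test of DESeq2 1.42.0, a replicate block, only the groups compared, and leaving out each library. Same-numbered libraries' deviations from group means correlated at -0.108 to 0.187. Some items are not reported here.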

Additional observations from a re-analysis of the deposited data

Results flagged for a closer look

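The effect of FHD-286 differed between the lines, by the test of the difference itself (effect in OCI-AML3-FLT3-ITD minus that in OCI-AML3, the quasi-likelihood test of edgeR, adjusted by Benjamini-Hochberg), for 12 of the 36 repair genes (1.98% of all genes tested were called higher and 1.38% lower). Only RAD54L, BLM and CHEK1 were called whichever library was left out, and the count was 3 without OCI-AML3-FLT3-ITD FHD-286 replicate 1. On the log2 scale the difference was 1.11 for RAD54L, 0.93 for XRCC2, 0.91 for BRCA1, 0.87 for BRIP1, 0.86 for CHEK1, 0.78 for BLM, 0.78 for FANCI, 0.75 for CHEK2, 0.74 for RAD51AP1, 0.68 for FANCG, 0.66 for FANCA and 0.56 for FANCD2. All 12 were lower with FHD-286 in OCI-AML3, and of them FANCI, CHEK1 and CHEK2 were also called higher in OCI-AML3-FLT3-ITD. Groups of 2 or 3 libraries are too small for a test of single outlying libraries.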

How the results depend on the processing

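No result changed direction while called under any alternative. In OCI-AML3 the count of repair genes called lower (19) ran from 16 with library totals to 24 with only the groups compared, and the count called higher (1) was 2 with upper-quartile factors, 2 with no filter, 2 with a filter of 1 CPM in 3 libraries, 2 with DESeq2's Wald test, 2 with the replicate block, 3 with library totals and 3 with only the groups compared. In OCI-AML3-FLT3-ITD the count called lower (2) was 0 with library totals, 0 with the replicate block, 0 with only the groups compared and 1 with no filter, and the count called higher (10) was 0 with only the groups compared. The difference between lines (12 higher) gave 19 with DESeq2's Wald test, and the controls (14 higher) gave 6 with only the groups compared. With each library left out in turn, counts ran from 16 to 23 lower and 0 to 3 higher in OCI-AML3, from 0 to 5 lower and 1 to 15 higher in OCI-AML3-FLT3-ITD, from 3 to 24 higher and 0 to 1 lower for the difference, from 7 to 22 higher and 0 to 1 lower between controls, and from 21 to 29 higher between treated groups. The lower call between controls came without OCI-AML3-FLT3-ITD control replicate 2 or replicate 3.

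The labels share replicate numbers, but same-numbered libraries did not all deviate together (correlations -0.108 to 0.187, with 3 of 15 pairs over 0.1) and the labels name no shared batch, so they were not treated as paired. A batch shared by some of them was not tested. With the replicate block the difference gave 10 higher and the controls 11 higher. Library totals moved the median of all genes to 0.169 in OCI-AML3 and 0.107 between controls, and upper-quartile factors moved it to -0.109 for the difference. The cause of these changes was not tested. ATRIP had 7 to 15 counts per library, and why its counts were low was not tested.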
